A study of Mus musculus with 3 samples.

Results

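Binding of RARα and RXRα was examined at 10 mouse genes that encode heat shock proteins and chaperones. The genes are Hspa8, Hspa1a, Hspa1b, Hspa5, Hsp90aa1, Hsp90ab1, Hsph1, Dnajb1, Hspd1 and Hspe1. They were selected by function, with the RARα score at Hspa8 already known to be among the highest of those shared with RXRα, so RARα scores and co-localization are given here as descriptions. All 10 were present among the 22367 protein-coding genes of the GENCODE M1 annotation of mm9. RXRα and RARα are nuclear receptors that bind DNA as a dimer, and chromatin immunoprecipitation sequencing (ChIP-seq) was used to locate them in the liver of male wild type C57BL/6 mice aged 3 months. The labels name no treatment, and whole liver holds hepatocytes together with other cell types, which these libraries do not separate. There was 1 library for the anti-RXRα antibody, 1 for the anti-RARα antibody and 1 input library of sonicated chromatin without antibody. Differences between these libraries therefore had no replicate check, and the intervals below cover counting error only.

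Chaperones bind unfolded or partly folded proteins and help them to fold, to assemble or to be degraded. Hsp70 proteins hold and release short hydrophobic stretches in a cycle driven by ATP, J domain proteins start that cycle, and Hsp110 proteins exchange the nucleotide that ends it. Hsp90 acts late on kinases and on steroid receptors, and Hsp60 with Hsp10 forms a folding chamber in mitochondria. In a heat shock, HSF1 binds heat shock elements near the starts of many of these genes. Hspa5 in the endoplasmic reticulum responds instead to unfolded secretory proteins through the ER stress element. The liver secretes large amounts of protein and expresses most of these chaperones without stress.

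The deposited RARα values were called peaks, each scored and given a false discovery rate. For RXRα and input they were coverage in 32 bp bins. Whole reads were recovered from the coverage, 9999939 for RXRα and 9999292 for input. The RXRα total is below the number of uniquely mapped reads that the paper reports, and how the deposited totals arose was not established. Counting intervals below refer to the recovered reads. A RARα peak was kept with a score over 20. An RXRα region was a run of bins at 20 or more times input. The pair was co-localized where they overlapped by 25% of the narrower interval. Each gene was searched within 10 kb of its start, which is the 5′ end of the gene model. Genome positions are mm9, and negative distances are upstream of the gene.

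Stress response motifs found under the RARα peaks are shown first because they lie close to transcript starts of these genes. A heat shock element is a run of GAA and TTC units in alternation with 2 bases between units. Runs of 3 units or more were found within 4 of the 41 distinct RARα peaks over 20 near the 10 genes. Among all 32946 such peaks in the genome, 0.941% held such a run. The genes were selected by function, and such elements are known near the starts of many heat shock genes. The motif shares of their peaks, here and below, are therefore descriptions and not a result about RARα. The share was 0.873% at scores of 21 to 50 and 1.77% at scores over 100, where peaks were wider (median 671 bp against 470 bp). The peaks with a run scored 276 at Hspa8, 159 at Hsp90aa1, 123 at Hsph1 and 65 at Hspd1 and Hspe1. The 4 sites are printed on the strand of the gene named, with the units and the bases between them in capitals. The Hspa8 site was at chr9:40609296-40609325 (+) and the Hsp90aa1 site at chr12:111934589-111934618 (-). The Hsph1 site was at chr5:150438855-150438884 (-). The site between Hspd1 and Hspe1 was at chr1:55144897-55144926 and is printed on the Hspe1 strand (+).
Hspa8: cggcacccTTCTGGAAGGTTCtaagacagg
Hsp90aa1: ggagggttcTTCCGGAAGGTTCcggaggct
Hsph1: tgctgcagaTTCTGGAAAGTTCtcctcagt
Hspe1: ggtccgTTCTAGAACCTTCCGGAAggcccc

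The Hspa8, Hsp90aa1 and Hsph1 elements had 3 units, and the element shared by Hspd1 and Hspe1 had 4. A run of 4 units was present in 0.0304% of all RARα peaks over 20. The element was 45 bp from the RARα summit at Hspa8, 54 bp at Hsph1, 78 bp at Hsp90aa1 and 296 bp at Hspd1 and Hspe1. Within 100 bases of the summit, 3 of the 41 peaks held 3 units or more, and 0.307% of all RARα peaks over 20 did. Hspa5 held the other stress motif, the ER stress element, which is CCAAT and CCACG separated by 9 bases. It lay at chr2:34627540-34627569 (+), 71 bp from the summit of the highest Hspa5 peak, and is printed with the motif in capitals.
Hspa5: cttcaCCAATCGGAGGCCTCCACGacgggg

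This motif was found in 0.0789% of all RARα peaks over 20. The nuclear receptor motif searched for was a direct repeat of the AGGTCA family, spaced 1 to 5 bases apart, with A or G at the first position and G or T at the third. Such a repeat was found in 0 of the 41 RARα peaks of the 10 genes and in 1.36% of all RARα peaks over 20. At so low a share, a count of 0 in 41 does not stand apart from all peaks. Single AGGTCA motifs on either strand were present in 14 of the 41 peaks, 34.1%, and in 29.1% of all RARα peaks over 20. A motif match describes these letters and is not a measurement of binding.

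All 10 genes had a RARα peak with a score over 20 within 10 kb, against 52.2% of all protein-coding genes. A score over 100 was found at 7 genes, against 4.86% of all genes. The 7 include Hspa8, whose score was part of the selection. Within 1 kb of the gene start, 5 genes had such a score, and the share of all genes was not computed for that distance. The highest score per gene ranged from 75 to 276, with a median of 128. Over the 11676 genes with a peak over 20, the median highest score was 48, with quartiles of 33 and 70. In total, 134 distinct RARα peaks of any score lay within 10 kb of the 10 starts, of which 41 passed the score of 20. Around this threshold, the lowest score kept was 21 and the highest not kept was 18. The false discovery rate of the kept peaks ranged from 0 to 0.03%. The maps of RARα peaks show the scores of all 134 peaks by distance from the gene start.

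**Figure D1:**
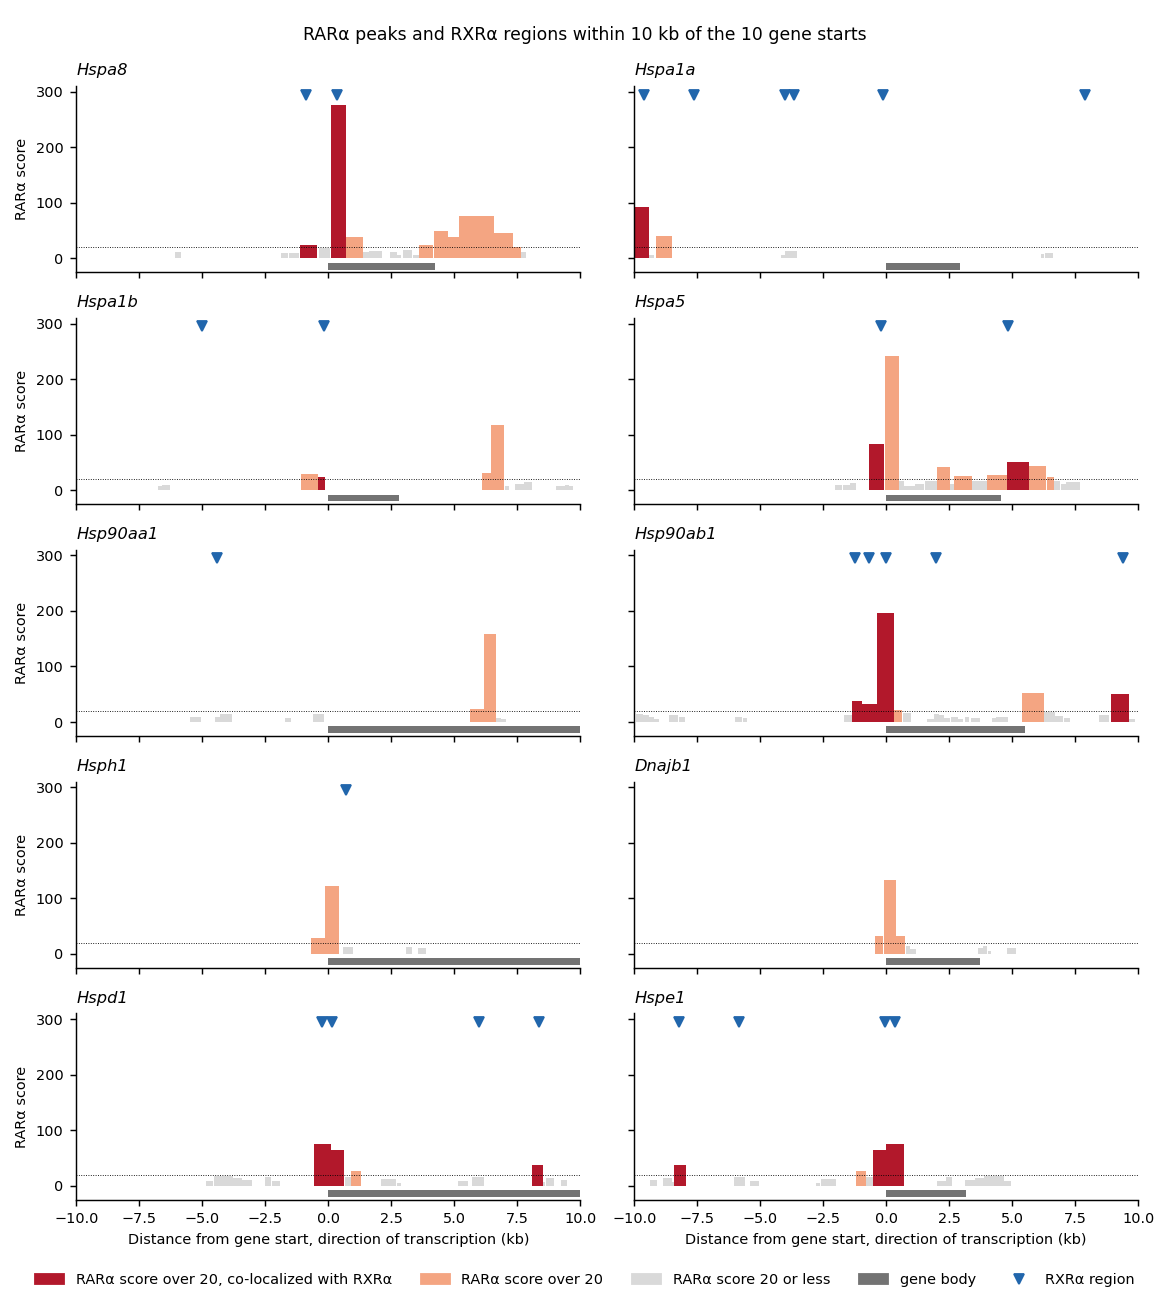
RARα peaks and RXRα regions within 10 kb of each gene start, by distance in kb in the direction of transcription. Bar height is the RARα score and bar width the peak, blue triangles mark the midpoints of RXRα regions, dark grey bars below 0 the gene bodies, and the dotted line a score of 20. The highest bars of Hspa8, Hspa5, Hsp90ab1, Hsph1 and Dnajb1 stand at the gene start, those of Hspa1a, Hspa1b and Hsp90aa1 are over 6 kb away, and the Hspa8 and Hspa5 panels have a row of kept peaks that runs past the gene end.

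RXRα regions were found within 10 kb of 9 of the 10 genes, the exception being Dnajb1, against 39.8% of all genes. Without Hspa8, whose shared peak was part of the selection, 8 of 9 genes had a region. A RARα peak co-localized with an RXRα region was found at 7 genes, against 23.5% of all genes. Hsp90aa1, Hsph1 and Dnajb1 had none. Hspd1 and Hspe1 count through the same peaks, and Hspa1a only through a peak of 92 at -9666 bp that was nearest to Lsm2. The count was 6 within 1 kb of the start, and 6 where only the nearest gene was used. The share of all genes was not computed for these settings. There were 22 distinct RXRα regions, and 3 of them overlapped no RARα peak of any score. All 3 were within 10 kb of Hspa1a.

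RXRα reads within 1 kb of the gene start exceeded input reads at all 10 genes. The ratio of RXRα to input reads, each per total reads, ranged from 1.5 to 9.92 with a median of 4.45. Its 95% counting interval lay above 1 at 9 genes, the exception being Hsp90aa1. For these 2 counts the share of all genes was not computed, and the ratios over all genes are given instead. Over the 22170 genes with an input read, the median ratio was 1.80, with quartiles of 0.750 and 3.43. Over the 1087 genes with a RARα score over 100, the median was 3.67. The plot of ratio against RARα score shows that the order of the 10 genes differed between the 2 measures. Hspd1, which shared the lowest RARα score of 75 with Hspe1, had the highest ratio.

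**Figure D2:**
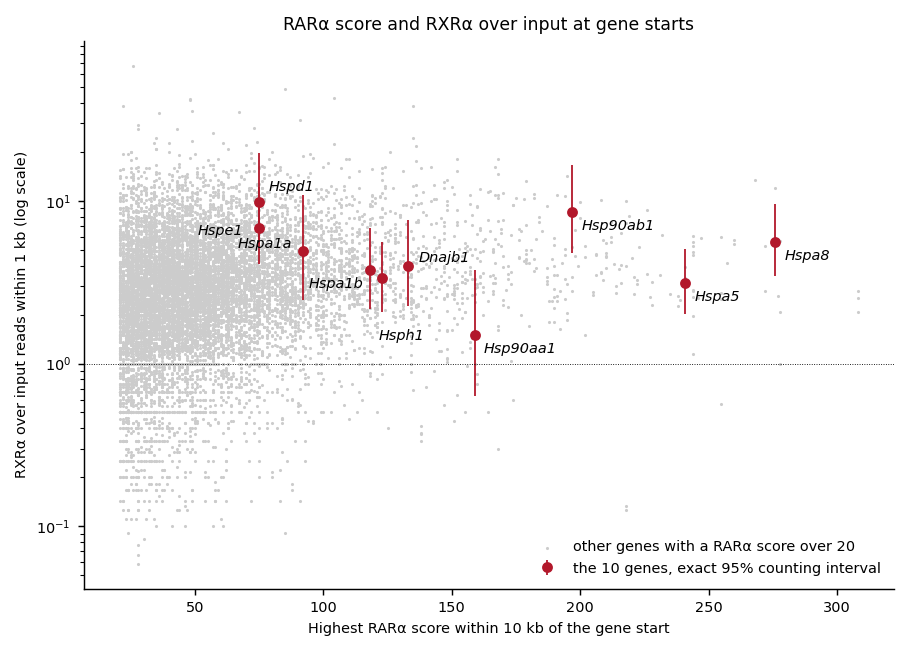
Highest RARα score within 10 kb (horizontal axis) and RXRα over input reads within 1 kb of the gene start (vertical axis, log scale) for the 10 genes in red with exact 95% counting intervals, and in grey for the other genes with a RARα score over 20 and reads in both libraries. Hspa8 and Hspa5 lie at scores of 276 and 241 with ratios of 5.60 and 3.15, and Hsp90aa1 has the lowest ratio of the 10, with an interval that spans 1.

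Hspa8 encodes Hsc70, the constitutive cytosolic Hsp70. It lies at chr9:40609067-40613283 on the plus strand. Its highest RARα peak had a score of 276 and covered chr9:40609161-40609771. Counting Hspa8 itself, 10 protein-coding genes had a score this high within 10 kb of the start. The summit was in a UTR exon, 288 bp after the gene start and at -4 bp from the nearest annotated transcript start, since most annotated Hspa8 transcript starts lie 251 to 318 bp inside the gene model. The peak co-localized with an RXRα region of 21.6 times input. A further RARα peak of 24 at -882 bp co-localized with a region of 34.8 times input. Within 1 kb, 112 RXRα reads and 20 input reads gave a ratio of 5.60 (3.46 to 9.52). The profile of RXRα reads had separate maxima upstream of the start and just after it.

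RARα peaks continued past the 3′ end of Hspa8. Of its 22 peaks, 10 had a score over 20, and 6 peaks from 4184 to 7843 bp after the start followed one another with gaps of at most 10 bp. This tract was 3660 bp long and ended 3627 bp past the annotated gene end. Its peaks over 20 had scores of 50, 38, 77, 45 and 21, in order along the gene, and none was co-localized. Among 91869 such tracts in the genome the median length was 430 bp, and 0.304% were as long. RARα peaks of any score covered 87.4% of the Hspa8 body and 71.6% of the 5 kb past its end, while the median gene had 1.84% of its body covered.

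Hspa5 encodes BiP, the Hsp70 of the endoplasmic reticulum, and lies at chr2:34627490-34632051 on the plus strand. Its highest RARα peak scored 241, with the summit 6 bp after a transcript start and 135 bp after the gene start, in a UTR exon. This peak was not co-localized. The adjoining upstream peak, with a score of 83 at -205 bp, was co-localized with a region of 29 times input. The 2 summits were therefore on either side of the gene start, and only the lower of them overlapped an RXRα region. The 85 RXRα and 27 input reads within 1 kb gave a ratio of 3.15 (2.02 to 5.05). RARα peaks covered 97.8% of the body and 61.1% of the 5 kb past its end. A tract of 12 adjoining peaks ran for 6150 bp and ended 3109 bp past the gene end, with a highest score of 51, and 102 tracts in the genome were as long. The last kept peaks of the tract, with scores of 43 and 23, had their summits in a UTR exon of the neighbouring gene Rabepk.

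Hspa1a and Hspa1b encode the heat-inducible cytosolic Hsp70, and are similar genes of 1 exon on the minus strand. Hspa1a lies at chr17:35106144-35109069 and Hspa1b at chr17:35093381-35096183. Their gene bodies were 90.9% identical over 2747 aligned bases, with 235 gap bases besides. The 1 kb before their starts was 71.4% identical over 895, with 210 gap bases. Only 34.3% of the 31-base stretches in the Hspa1a body and 32.2% in the Hspa1b body occurred once in the genome, so read placement between the 2 genes is uncertain. No RARα peak of any score lay within 1 kb of the Hspa1a start or in either gene body. The highest RARα peak within 10 kb of Hspa1a scored 92, was at -9666 bp and was nearest to Lsm2, an RNA-binding protein of the splicing machinery. Hspa1b had peaks of 29 at -582 bp and 24 at -272 bp. Its highest, of 118, was 6778 bp downstream in an exon of the non-coding gene 1110038B12Rik.

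An RXRα region was called at both promoters. The region at Hspa1a, chr17:35109121-35109312, was centred at -147 bp with 38.2 times input and overlapped no RARα peak. The region at Hspa1b, chr17:35096321-35096416, was centred at -185 bp with 29.9 times input and co-localized with the RARα peak of 24. Within 1 kb, Hspa1a had 49 RXRα and 10 input reads, a ratio of 4.90 (2.45 to 10.8). Hspa1b had 64 and 17, a ratio of 3.76 (2.18 to 6.86). The sequences under the regions are shown on the minus strand because they share a run of 66 bases. Capitals mark heat shock elements of 2 units, of which the Hspa1a region held 1 and the Hspa1b region held none.
Hspa1a: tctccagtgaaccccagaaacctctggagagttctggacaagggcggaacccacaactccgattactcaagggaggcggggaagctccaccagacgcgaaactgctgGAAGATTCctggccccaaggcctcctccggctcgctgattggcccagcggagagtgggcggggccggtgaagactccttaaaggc
Hspa1b: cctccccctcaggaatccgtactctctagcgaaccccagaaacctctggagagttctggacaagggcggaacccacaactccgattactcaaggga

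Of the 31-base stretches in these regions, 17.7% at Hspa1a and 44.8% at Hspa1b occurred once in the genome.

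**Figure D3:**
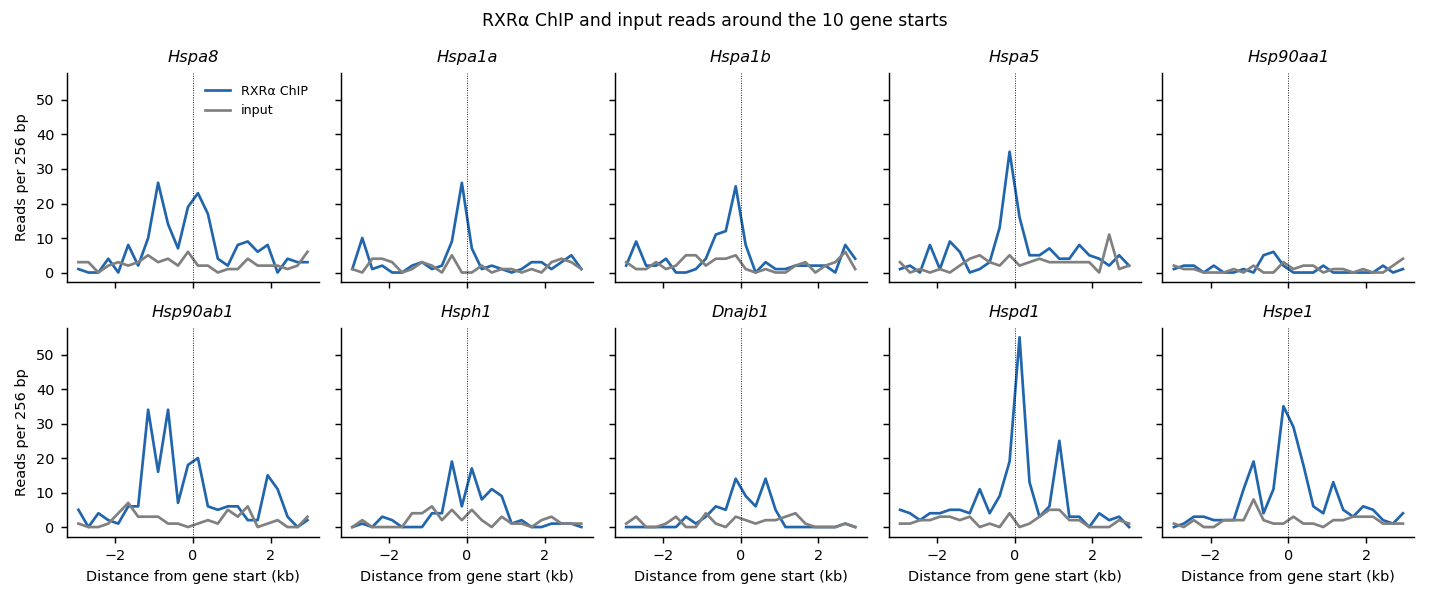
RXRα ChIP reads (blue) and input reads (grey) per 256 bp by distance in kb from each gene start, in the direction of transcription. RXRα reads rise above input at the start of every gene but Hsp90aa1, where few reads of either library lie within 1 kb of the 5′ end of the gene model, and Hspa8 and Hsp90ab1 have further maxima upstream.

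Hsp90ab1 and Hsp90aa1 encode the constitutive and the more heat-inducible form of cytosolic Hsp90. Hsp90ab1 lies at chr17:45704724-45710220 on the minus strand. Its RARα peak of 197 had its summit 25 bp after the gene start, in a UTR exon, and co-localized with an RXRα region of 24.9 times input. Peaks of 33 at -745 bp and 37 at -1125 bp were co-localized too, with regions of 33.2 and 21 times input. The 111 RXRα and 13 input reads within 1 kb gave a ratio of 8.54 (4.79 to 16.5). Hsp90ab1 had 31 RARα peaks in all, the most of the 10 genes, of which 6 scored over 20. The peaks of 52 at 5700 bp and 50 at 9320 bp after the start were nearest to Slc35b2, a nucleotide sugar transporter.

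Hsp90aa1 lies at chr12:111928815-111940938 on the minus strand and showed a different arrangement. Its RARα peak of 159, at chr12:111934281-111934741, was 6413 bp inside the gene model, where the summit was at -26 bp from a transcript start. Within 1 kb of the 5′ end of the model the highest RARα score was 14, and the 15 RXRα and 10 input reads gave a ratio of 1.5 (0.630 to 3.73). At the transcript start 6333 bp inside the model, 50 RXRα and 28 input reads gave 1.79 (1.10 to 2.95). The peak of 159 overlapped no RXRα region. The only region within 10 kb was at -4406 bp with 31.5 times input, where the overlapping RARα peaks scored 14 and 9. Thus the Hsp90 genes had RARα scores of 197 and 159 at the starts of transcripts, with RXRα ratios whose intervals did not overlap.

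Hsph1 encodes Hsp110, the nucleotide exchange factor of Hsp70, and lies at chr5:150416862-150438951 on the minus strand. Dnajb1 encodes Hsp40, its J domain partner, and lies at chr8:86132074-86135801 on the plus strand. Each had its highest RARα peak at the promoter without a co-localized RXRα region. The Hsph1 peak scored 123 with its summit at -7 bp from a transcript start. The Dnajb1 peak scored 133 with its summit 101 bp after the gene start, between peaks of 32 on either side. The only RXRα region near Hsph1 was 1 bin wide at 21.6 times input, 695 bp after the start, and no region was found near Dnajb1. RXRα reads within 1 kb nevertheless exceeded input at both, with 77 and 23 reads at Hsph1, a ratio of 3.35 (2.08 to 5.59), and 60 and 15 at Dnajb1, a ratio of 4.0 (2.24 to 7.58). At these genes RXRα was therefore above input over the 2 kb window but did not reach 20 times input in a bin under the kept RARα peaks.

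Hspd1 and Hspe1 encode mitochondrial Hsp60 and its partner Hsp10. They lie head to head at chr1:55134679-55145087 on the minus strand and chr1:55144976-55148151 on the plus strand, their gene models overlap at the 5′ ends, and they share all their RARα peaks. The peaks of 75 and 65 adjoined each other over the starts. The summit of the peak of 75 was at -158 bp from the Hspd1 start and that of the peak of 65 at -361 bp from the Hspe1 start. Both overlapped an RXRα region of 69.7 times input at chr1:55144833-55145056, which held 61 RXRα and 4 input reads with the 100 bp on each side. Within 1 kb the ratio was 9.92 (5.47 to 19.7) at Hspd1, from 119 and 12 reads, and 6.82 (4.08 to 12.1) at Hspe1, from 116 and 17 reads. RARα scores here were the lowest of the 10 genes and the RXRα ratio at Hspd1 was the highest.

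The strongest RXRα region at any of the 10 genes was in an intron of Hspd1, 8351 bp after the start, at chr1:55136577-55136896. It reached 108 times input with 330 RXRα and 9 input reads, counted with 100 bp on each side. The RARα peak there had a score of 38 and a false discovery rate of 0.01%. All of its 31-base stretches occurred once in the genome. The 224 bases around its highest bin, chr1:55136641-55136864, are shown on the minus strand. They held no exact match to the AGGTCA family as defined above and are accordingly printed without capitals. Looser matches were not searched for.
Hspd1 intron: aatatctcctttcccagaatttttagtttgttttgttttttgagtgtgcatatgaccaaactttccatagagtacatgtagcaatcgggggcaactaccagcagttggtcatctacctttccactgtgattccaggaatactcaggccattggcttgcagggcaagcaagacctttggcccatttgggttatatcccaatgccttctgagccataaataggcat

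Across the 22 RXRα regions with 50 bases on each side, no direct repeat of the AGGTCA family spaced 1 to 5 bases was found. Such repeats were present in 3.26% of all RXRα regions, a share from which 0 of 22 does not stand apart. A single AGGTCA motif was present in 6 of the 22, 27.3%, and in 35.5% of all RXRα regions. The promoters, taken as 250 bases before to 50 bases after the gene start, held CCAAT on either strand in 8 of 10 genes, against 37.9% of all promoters. TATAAA was present in 0 of the 10, which does not stand apart from the 7.47% of all. A heat shock element of at least 2 units was present in 5 of the 10, those of Hspa1a, Hspa1b, Hsp90aa1, Hsph1 and Hspe1, and in 14.3% of all promoters. The elements under the RARα peaks of Hspa8, Hspd1 and Hsph1 began 237, 167 and 76 bp after the gene start, outside this window. The match of 2 units counted in the Hsph1 promoter is therefore not the element printed above. The observed over expected ratio of CpG ranged from 0.140 at the Hsp90aa1 gene start to 0.994 at Hspd1, with a median of 0.534 over all promoters. The Hsp90aa1 motif and CpG value refer to the 5′ end of the gene model and not to the internal start that carried the RARα peak.

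Over the gene bodies, RXRα exceeded input beyond the counting interval at 6 genes, a count for which the share of all genes was not computed. The median ratio of the 10 was 1.78, against 1.0 over all genes with an input read. Hspd1 had the highest body ratio, 6.17 (4.93 to 7.79), from 555 RXRα and 90 input reads. Hspe1 followed at 4.55 (2.84 to 7.58), Hspa8 at 2.44 (1.68 to 3.60) and Hsp90ab1 at 2.18 (1.51 to 3.19). Hsph1 and Hsp90aa1, the longest genes, had body ratios of 1.0 (0.772 to 1.29) and 1.02 (0.744 to 1.41). Hspa8 and Hspa5, the genes with nearly complete RARα cover, did not have the highest RXRα body ratios, and Hspa5 had 1.76 (1.25 to 2.50).

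The body values depended in part on the first 1 kb. Without it, the interval lay above 1 at 3 genes, Hsp90ab1, Hspd1 and Hspe1, and the share of all genes was again not computed. The Hspa5 ratio was then 1.49 (0.996 to 2.24) and that of Hspe1 was 2.53 (1.41 to 4.73). The Hspa8 ratio was 1.5 (0.966 to 2.35), and the Dnajb1 ratio fell from 1.80 to 0.154 (0.0169 to 0.680), from 2 RXRα and 13 input reads. At Hsph1 it was 0.699 (0.518 to 0.940), below 1. The Hspd1 ratio stayed at 5.77 (4.56 to 7.38), since its intronic region lay outside the first 1 kb. Exons of Hspa8, Hsp90aa1 and Hspd1 had 57.1%, 42.5% and 42.2% of 31-base stretches that occurred once, against 100% for Hspa5 exons, and the part of this in the body values was not tested.

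**Figure D4:**
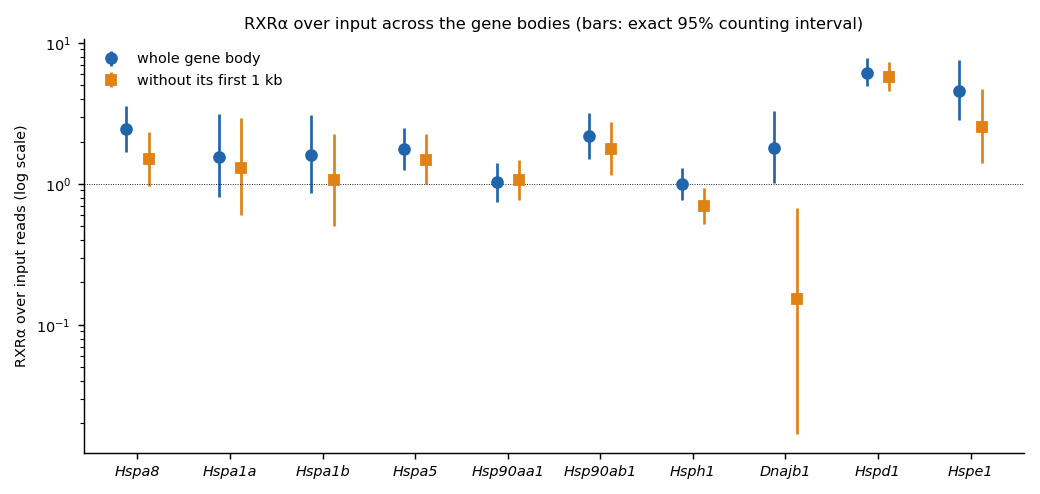
RXRα over input reads (log scale) over the whole gene body (blue circles) and over the body without its first 1 kb (orange squares), with exact 95% counting intervals, for each of the 10 genes. The intervals of Hspd1 lie above all others in the second set except that of Hspe1, and Dnajb1 has the lowest value without its first 1 kb.

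The 10 genes were set beside a wider list of 104 gene entries for chaperones and their regulators in 7 roles, compiled by function with earlier results of these data known. A RARα peak over 20 was found at 95 entries, 91.3%, an RXRα region at 72, 69.2%, and a co-localized peak at 50, 48.1%. The shares over all genes were 52.2%, 39.8% and 23.5%. The median highest score of entries with a peak over 20 was 61, which was lower than the 128 of the 10 genes, and the median RXRα ratio within 1 kb was 2.93 against 4.45. Neighbours such as Hspb2 and Cryab, or Hspa1l and Hspa1a, can share peaks.

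Chaperones of the endoplasmic reticulum, to which Hspa5 belongs, had the highest share of scores over 100 of the 7 roles, 10 of 14, and a co-localized peak at 11 of 14. Calr, a lectin chaperone, had a score of 222, P4hb, a disulfide isomerase, 214, and Hsp90b1, the Hsp90 of this compartment, 210. Each of these peaks was within 1 kb of the gene start. The highest RXRα ratios of this role were 6.30 (3.21 to 13.8) at Creld2, 5.56 (3.34 to 9.75) at Canx and 5.18 (3.06 to 9.28) at Hyou1. The regulators of the unfolded protein response had scores of 167 at Ddit3, 154 at Ern1 and 140 at Xbp1, with co-localized peaks at all 3. Hsf5, a member of the heat shock factor family, had neither a RARα peak over 20 nor an RXRα region. Over the 12 regulators, 4 had a score over 100, the other being Atf4 with 137.

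Among the J domain proteins, the highest scores were 157 at Dnajc3, 128 at Dnajb9 and 119 at Dnajb2. Dnajc3 and Dnajb9 are J domain partners of Hspa5. Dnajc3 had 4 RXRα regions, none of them co-localized with a RARα peak over 20. Dnaja3, a mitochondrial J domain protein, had the highest RXRα ratio of this role, 11.7 (6.47 to 23.1). In the cytosolic Hsp70 and Hsp90 system, 14 of 26 entries had a co-localized peak and the scores were lower, led by 117 at Chordc1, 106 at Bag3 and 99 at Fkbp4. Stub1, a ubiquitin ligase that acts with Hsp70, had a ratio of 13.4 (8.42 to 22.7), above those of the 10 genes. Bag2 and Hspa12b had neither a peak over 20 nor a region.

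The small heat shock proteins ranged from a RARα score of 173 at Hspb8 to no peak at Hspb7. Hspb8 also had 142 RXRα and 23 input reads within 1 kb, a ratio of 6.17 (3.96 to 10.1). Hspb1 had a score of 38 and a ratio of 7.10 (3.64 to 15.4), with 3 RXRα regions and no co-localized peak. A score over 100 was found at 0 of 7 mitochondrial chaperones and 0 of 13 entries for the chaperonin TRiC and prefoldin, counts that do not stand apart from the 4.86% of all genes. Grpel1, the exchange factor of mitochondrial Hsp70, had a score of 74 and a ratio of 7.46 (4.16 to 14.5), close to the 75 and 6.82 of Hspe1. Cct7 led the chaperonin with a score of 94 and a ratio of 6.81 (4.01 to 12.3). Vbp1, of prefoldin, had neither a peak over 20 nor a region.

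**Figure D5:**
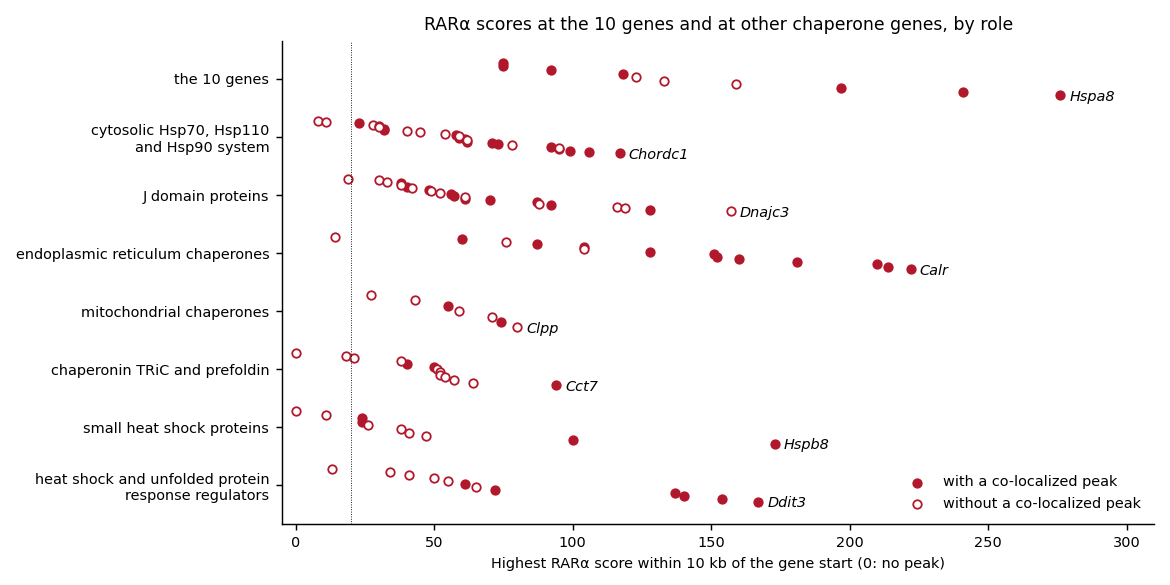
Highest RARα score within 10 kb of the gene start for the 10 genes and for 104 entries of the wider list by role, 1 point per entry. Filled points have a RARα peak over 20 co-localized with an RXRα region, the dotted line marks a score of 20, and the highest entry of each role is named. Endoplasmic reticulum chaperones reach 222, while mitochondrial chaperones stop at 80 and TRiC and prefoldin at 94.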

How the data were processed

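Chromatin from mouse liver was analysed as 1 RXRα, 1 RARα and 1 input library. Per the labels the authors used CASAVA 1.4, Bowtie and, for RARα, MACS. The files and labels give mm9, whereas the study's methods name mm10 for alignment and mm9 for annotation. Positions were read as mm9, on which the highest RARα peak within 1 kb of a start lay at a median of 0 bp (quartiles -99 and 42) from the nearest transcript start over 9140 genes. The deposited signal of the RXRα and input libraries was whole-number coverage in bins of 32 bp. The deposited RARα peaks had a score, whose definition is not given in the sources used here, and a false discovery rate in percent from the authors' peak caller. The study's methods set a cut-off relative to input, without saying whether the deposited score is that ratio, so RARα scores were used as given.

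Each read covered 5 bins, and differencing returned whole reads on every nuclear chromosome. RXRα coverage was scaled to the input total, input was taken as the larger of the bin and the genome mean, and bins at 20 or more times input were joined within 200 bp. Peaks and regions were assigned by summit or midpoint. A shared peak counts for each gene within reach. Ratios have exact conditional (Clopper-Pearson) 95% intervals. Stretches of 31 bases were counted on both strands of the mm9 genome. The steps were tested on simulated data. Analyses used Python 3.11.15, numpy 2.4.6, scipy 1.17.1, pysam 0.24.0 and samtools 1.23.1. With 1 library per antibody no test was made. All 10 genes were named. Of the wider list, genes were named by role for the highest score, the highest ratio or neither peak nor region, at most 3 of each. Members and lists were chosen with earlier results of these data known. Of the listed symbols, Pfdn6 did not match a gene, Hspa14 matched 2 entries, and not all genes the rule names are printed. The search for motifs in whole peaks and the joining of adjoining peaks into tracts were added after seeing the data. The sequence of 1 further RXRα region is not reported here.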

Additional observations from a re-analysis of the deposited data

How the results depend on the processing

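Of 43 alternative values of the counts and the median ratio, 37 stayed within 1.5 times the reported count or within the counting interval, and 6 moved. Counts for the 10 genes cannot pass 10, so none of them could rise beyond 1.5 times, and a rise from 7 to 10 was labelled as unmoved. With RARα scores over 100, the genes with a co-localized peak numbered 2 of the 10 and 10 of the wider list, against 2.4% of all genes. With RXRα at 30 or more times input they numbered 4 and 29, against 14.9%. With RXRα at 10 or more times input the wider list had 81, and all 10 genes had a co-localized peak, against 38.9% of all genes. Over a window of 10 kb the median ratio of the 10 genes was 2.24. A changed number of peaks, regions or bases counted is part of each of these settings. Of 77 values for single genes, 66 stayed and 11 moved. The highest RARα score of Hspa1a was 0 within 1 kb or where only the nearest gene was used. Within 1 kb of the gene start it was 29 at Hspa1b and 14 at Hsp90aa1. Without Hspa1a and Hspa1b, whose reads cannot be placed with certainty, the median ratio was 4.8. No paired analysis was possible because there was 1 library per antibody. With few input reads per window, 10 to 27 within 1 kb, the intervals of many of the 10 genes overlapped, and differences between genes were not tested.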
